A study of Mus musculus with 9 samples.

Results

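Treatment with interferon alpha (IFNa) was compared with no treatment in wild-type conventional type 2 dendritic cells (cDC2s), which are specialised in showing antigen to CD4 T cells. The comparison took the 3 libraries whose titles name wild type with IFNa and the 3 whose titles name wild type alone (WT), 6 of the 9 libraries of the series. All genes were examined: 40879 gene symbols were listed and 13251 had enough counts to be tested. Mouse bone marrow cells were cultured for 9 days with Flt3L, the growth factor that drives dendritic cell development, at 100 ng/ml, and cDC2s were then sorted by flow cytometry. Both groups have a wild-type genotype and received Flt3L, and they differ by IFNa, added on day 5. IFNa was thus present while the cells were still developing and before they were sorted, and no dose of it was found in the labels. One field of the labels names IFNa for every library of the series, so groups rest on the titles and on a separate treatment entry, which name it for these 3 libraries alone. The remaining 3 libraries, titled A20iKO (A20 fl/fl crossed to CD11c-Cre), entered the model for the spread between replicates and the filter on low counts, which left 12173 genes without them. The design text gives 3 mice per group but does not say whether a library is 1 mouse, so p-values measure the spread between these libraries. All 6 held counts of both the female-specific RNA Xist (0.0335% to 0.0872% of counts) and the Y-linked gene Ddx3y (0.00307% to 0.00964%).

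IFNa is a type I interferon. It binds a receptor made of IFNAR1 and IFNAR2, whose kinases JAK1 and TYK2 phosphorylate transcription factors of the STAT family, among them STAT2. These join IRF9 in a complex called ISGF3, which enters the nucleus and binds the interferon-stimulated response element (ISRE) in the promoters of interferon-stimulated genes. Their products block viral replication, sense nucleic acids and present viral peptides, and in dendritic cells type I interferon is known to promote maturation and cross-priming.

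The stretch of DNA just before the start of a gene is where ISGF3 is known to act, so 6 promoters are shown for genes described below. They were chosen after the expression values were seen: Isg15, Ifit3, Rsad2 and B2m rose and hold the ISRE core, and the IFITM pair Ifitm3 and Ifitm1, which moved in opposite directions, holds none in this window. Each is the 250 bases before the start, 5′ to 3′ on the strand of the gene, from RefSeq on GRCm38.p6. Capitals mark ISRE cores, which were searched on both strands as GAAA, any 2 bases (NN) and GAAA, and so also as TTTC, any 2 bases and TTTC.
Isg15 (chr4:156200819-156201068, minus strand): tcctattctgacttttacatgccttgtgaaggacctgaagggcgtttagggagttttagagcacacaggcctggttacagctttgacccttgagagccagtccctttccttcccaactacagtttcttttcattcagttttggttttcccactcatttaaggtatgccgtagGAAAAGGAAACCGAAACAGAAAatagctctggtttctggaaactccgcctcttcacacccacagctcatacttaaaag
Ifit3 (chr19:34583279-34583528, plus strand): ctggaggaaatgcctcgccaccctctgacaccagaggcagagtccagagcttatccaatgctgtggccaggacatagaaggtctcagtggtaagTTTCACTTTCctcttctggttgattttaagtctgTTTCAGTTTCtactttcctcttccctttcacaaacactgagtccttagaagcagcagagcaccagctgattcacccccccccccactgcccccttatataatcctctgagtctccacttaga
Rsad2 (chr12:26456453-26456702, minus strand): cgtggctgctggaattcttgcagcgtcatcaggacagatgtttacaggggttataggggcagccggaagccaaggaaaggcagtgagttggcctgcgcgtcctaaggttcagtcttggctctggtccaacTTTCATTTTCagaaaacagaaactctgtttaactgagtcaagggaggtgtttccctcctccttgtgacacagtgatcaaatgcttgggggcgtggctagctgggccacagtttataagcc
B2m (chr2:122147437-122147686, plus strand): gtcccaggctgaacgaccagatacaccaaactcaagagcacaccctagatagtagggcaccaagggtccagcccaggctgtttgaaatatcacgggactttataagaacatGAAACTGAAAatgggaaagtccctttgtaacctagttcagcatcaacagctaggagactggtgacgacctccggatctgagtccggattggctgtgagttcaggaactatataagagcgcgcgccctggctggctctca
Ifitm3 (chr7:141010745-141010994, minus strand): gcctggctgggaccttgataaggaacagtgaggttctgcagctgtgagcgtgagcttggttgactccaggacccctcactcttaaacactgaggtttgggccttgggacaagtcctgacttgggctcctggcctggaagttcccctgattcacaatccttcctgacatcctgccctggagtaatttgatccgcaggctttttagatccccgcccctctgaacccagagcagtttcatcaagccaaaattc
Ifitm1 (chr7:140967826-140968075, plus strand): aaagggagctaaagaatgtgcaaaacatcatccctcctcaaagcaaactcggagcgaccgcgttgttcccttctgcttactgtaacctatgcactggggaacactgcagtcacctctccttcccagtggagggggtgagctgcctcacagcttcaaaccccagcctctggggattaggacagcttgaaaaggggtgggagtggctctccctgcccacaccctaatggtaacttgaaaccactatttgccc
In Isg15, 3 matches overlapped each other and began 78, 72 and 66 bases before the start. Ifit3 had 2, at 156 and 122 bases before the start, Rsad2 had 1 at 120 bases and B2m had 1 at 139 bases. Of genes that rose and are not printed here, Ifit1 had 2 matches in the same stretch and Irf7 had none. A match is a run of letters and not a measured binding site, and a window without one says only that these letters are not in it.

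Over all genes, 318 rose with IFNa, which was 2.4% of those tested, and 93 fell, or 0.702%, so that 3.1% were called in either direction (edgeR's quasi-likelihood test, Benjamini-Hochberg adjusted p under 0.05). Levels are in CPM, the unit that scales each library's counts to a common total. The increases were large: 276 of the 318 were at least 2-fold, 97 at least 8-fold and 67 at least 16-fold, and 17 of these genes had no count in WT. The median gene that rose stood at 22.5 CPM in WT and 83.5 CPM with IFNa. The decreases were smaller and concerned more abundant transcripts. Of the 93, 46 were at least 2-fold and 5 at least 8-fold, with a median of 151 CPM in WT and 78.7 CPM with IFNa. The median log2 fold change of all tested genes was -0.02. The count of genes that fell depended on single libraries: it was 45 without WT replicate 1, 47 without WT replicate 3, and 58, 43 and 48 without IFNa replicates 1, 2 and 3, while the count that rose stayed between 225 and 313 when any of the 6 libraries was left out. CPM here counts reads of 3' tags, so that levels of different genes should depend little on their length. In bulk libraries such as these, fewer cells of a type and less RNA per cell cannot be told apart.

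**Figure D1:**
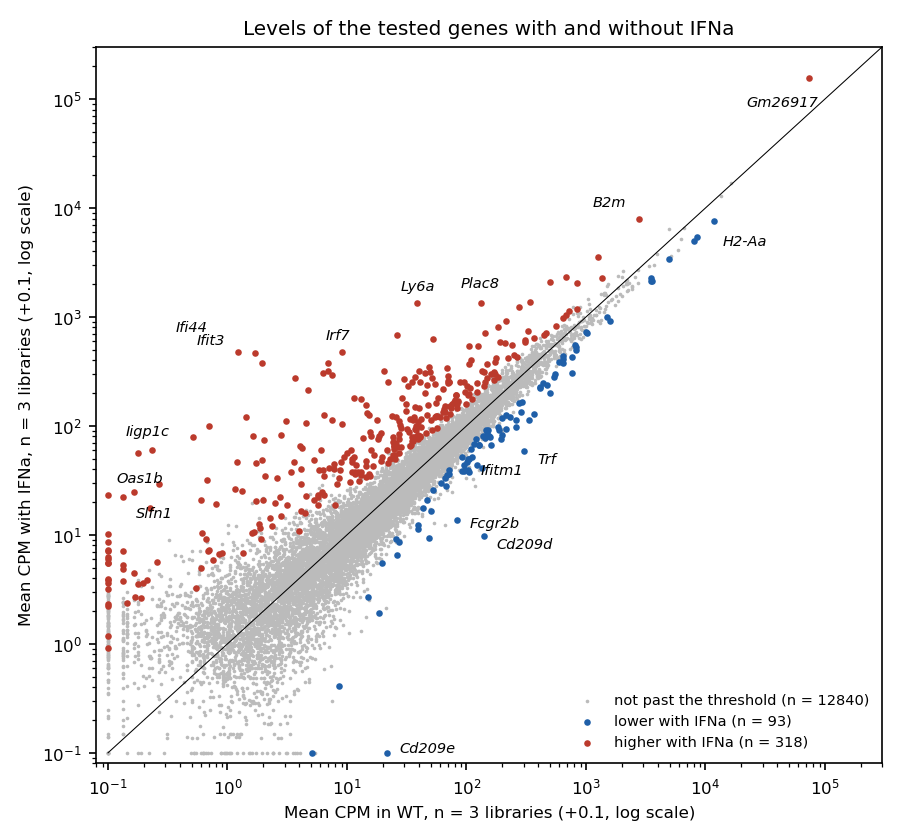
Mean level of each tested gene in WT (x axis) against IFNa (y axis), in CPM plus 0.1 on log scales, 3 libraries each. Red points are the 318 genes that rose, blue the 93 that fell and grey the rest; genes that rose reach far above the diagonal at low WT levels, while genes that fell lie close under it at high levels.

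The 6 libraries held 6900598 to 10552756 counts. They differed within groups in stromal transcripts, such as collagens, a product of cells that a cDC2 sort should not hold. These took 0.0852%, 0.534% and 0.184% of counts in WT replicates 1, 2 and 3 and 0.0618%, 0.27% and 0.517% in IFNa replicates 1, 2 and 3. The first principal component of the 6 libraries (28.5% of the variance) followed that order except for the 2 lowest libraries, which traded places, and the second (27.7%) separated IFNa from WT. Leaving out WT replicate 2 and IFNa replicate 3 together gave 261 genes higher and 65 lower. The long noncoding RNA Gm26917, the gene with the most counts and named for that, took 5.21% to 11.4% of counts in WT and 12.2% to 17.3% with IFNa, and without it and the mitochondrial genes 355 genes rose and 98 fell. T, B and NK cell markers summed to 0 to 2.13 CPM in WT and 1.85 to 3.27 CPM with IFNa, with Cd79a and Ncr1 at 0 counts in all 6 libraries.

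**Figure D2:**
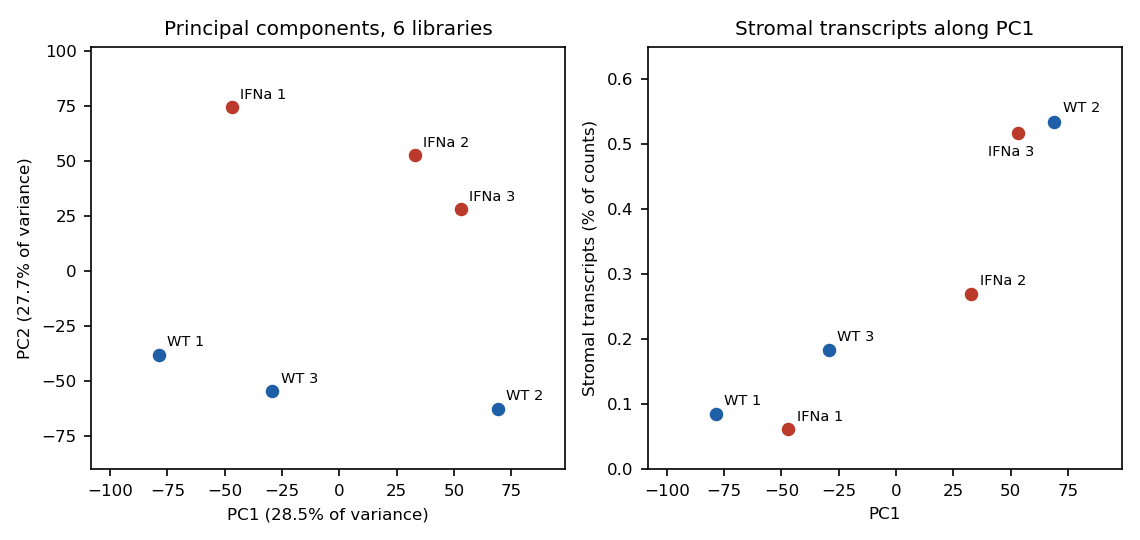
Left, the 6 libraries on the first 2 principal components of log2 CPM; right, the percent of counts in stromal transcripts against the first component. WT (blue) and IFNa (red) separate along the second component, and WT replicate 2 and IFNa replicate 3 have the largest stromal shares, 0.534% and 0.517%.

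No interferon transcript was detected. All 21 genes listed for type I, II and III interferons had 0 counts in the 6 libraries, which allows a level of up to 0.112 CPM in WT and 0.116 CPM with IFNa for each gene (3 counts over the group). At the receptor, Ifnar1 had 60.9, 53.6 and 67.4 CPM in WT and 45.1, 53.2 and 57.8 CPM with IFNa, overlapping ranges that did not pass the test. Ifnar2 was higher in every IFNa library, at 565, 620 and 453 CPM against 434, 310 and 325 CPM, but did not pass (adjusted p = 0.108), though it did in 4 of 18 alternatives. The kinases Jak1 (log2 fold change 0.11, SE 0.217) and Tyk2 (0.06, SE 0.236) did not pass either.

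Stat2 and Irf9, which encode subunits of ISGF3, rose. Stat2 had 39.4, 34.4 and 36.8 CPM in WT and 183, 165 and 100 CPM with IFNa (log2 fold change 2.02, SE 0.233, adjusted p = 0.000171). Irf9 went from 78, 97.5 and 128 CPM to 269, 224 and 205 CPM. The lowest IFNa library stood above the highest WT library for both genes, as it did for 9.77% of all genes tested. The 18 interferon receptor, JAK and STAT genes tested had a median log2 fold change of 0.08. Of 13 genes that restrain the pathway, 2 rose. Usp18, which removes ISG15 from proteins and blocks IFNAR2 signalling, rose from 11.7, 1.87 and 5.59 CPM to 144, 131 and 104 CPM. Socs2, a suppressor of cytokine signalling, rose to a mean of 40.1 CPM from 7.62 CPM, while Socs1 (3.14 ± 0.922 and 10.3 ± 2.35 CPM, SD, n = 3) did not pass (adjusted p = 0.125).

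Among 7 interferon regulatory factors, Irf7 and Irf1 rose. Irf7, which amplifies type I interferon production, had 6.47, 11.5 and 9.24 CPM in WT and 469, 536 and 423 CPM with IFNa (log2 fold change 5.72, SE 0.264, adjusted p = 5.66e-08). Irf1, also an activator of MHC class I genes, rose from 83.4, 87.7 and 92.9 CPM to 271, 238 and 243 CPM. The dendritic cell factors Irf8 and Irf4 did not pass. Irf8 had 918, 735 and 767 CPM in WT and 918, 732 and 742 CPM with IFNa, a nearly identical set of values. Irf4 spread from 127 to 204 CPM in WT and from 101 to 155 CPM with IFNa.

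Antiviral effector families rose together. Over 141 tested members of the IFIT, OAS, PYHIN, Schlafen, GBP, IRG, ISG15, IFITM, Ly6, PARP, TRIM and further effector lists, 97 rose and 1 fell, with a median log2 fold change of 2.18. Their summed level was 8319 ± 801 CPM in WT and 29882 ± 2109 CPM with IFNa (SD, n = 3), a ratio of 3.59. With any 1 of the 6 libraries left out, 88 to 95 of them rose. The plot of fold changes by gene list shows the families beside the rest.

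**Figure D3:**
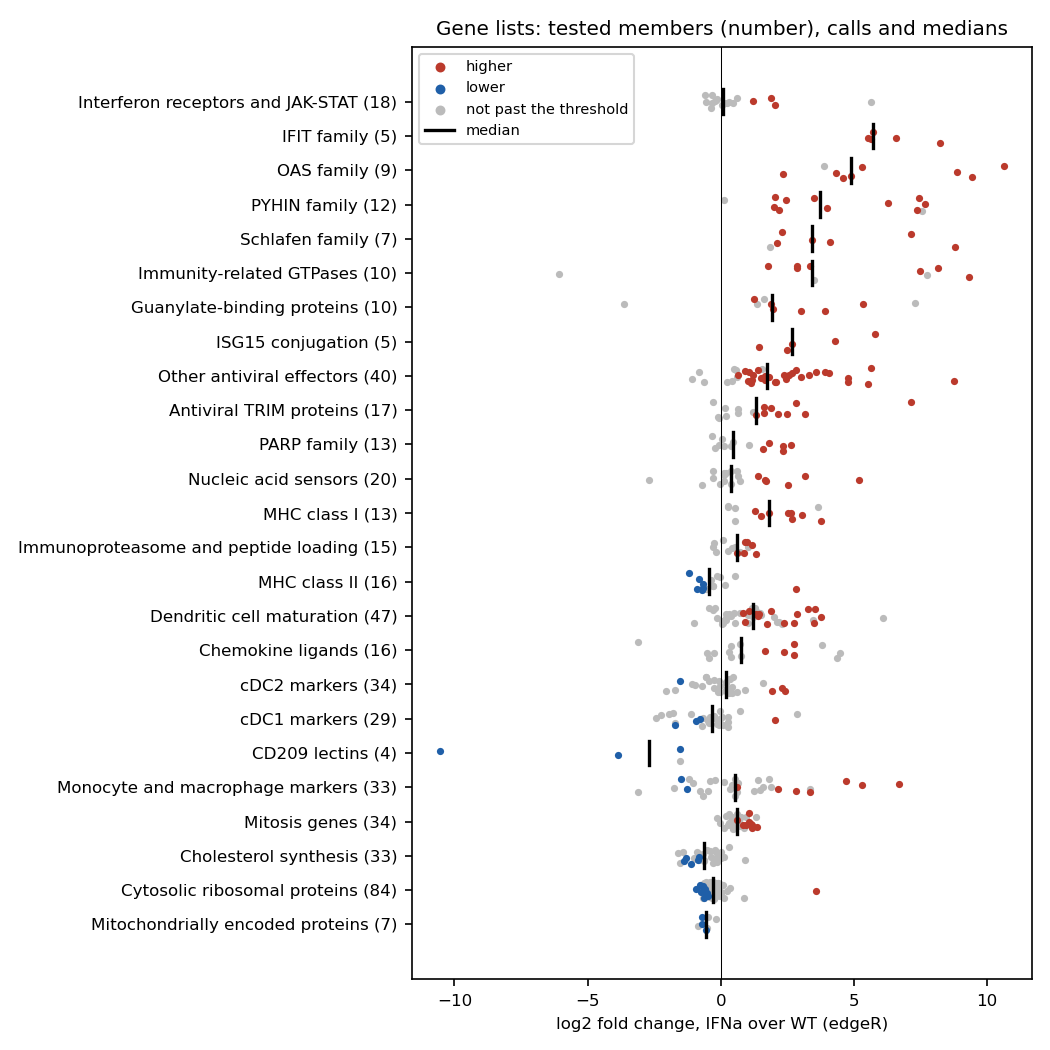
log2 fold change, IFNa over WT, of each tested gene in 25 gene lists, with the number of tested members in parentheses. Red points rose, blue fell, grey did not pass the test and black bars are medians, which run from 5.70 in the IFIT family to -2.69 in the CD209 lectins.

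The IFIT proteins bind viral RNA that lacks the marks of host RNA, and all 5 tested members rose, with a median log2 fold change of 5.70. Ifit3 had 0.392, 2.54 and 1.83 CPM in WT and 474, 504 and 422 CPM with IFNa. Ifit2 went from 3.83, 4.55 and 5.48 CPM to 234, 255 and 152 CPM, and Ifit1 from 0.196, 2.81 and 1.02 CPM to 133, 115 and 116 CPM. Summed, the family rose from 10.9 ± 2.52 to 915 ± 96.8 CPM, a ratio of 83.8.

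The OAS enzymes make a signal that activates RNase L, the endoribonuclease that degrades viral and cellular RNA. Of 9 tested members, 8 rose. Oasl2 was the most abundant, with 10.4, 5.22 and 6.4 CPM in WT and 327, 287 and 270 CPM with IFNa. Oas1b and Oas1g had no count in any WT library and stood at 16.3 to 31.9 CPM and 6.54 to 13.2 CPM with IFNa, at least 210-fold and 91.7-fold higher against 3 counts over the group. Oasl1 had 3 counts in WT and 77.4, 57.7 and 43.4 CPM with IFNa, a ratio of 561 with a counting interval of 191 to 2722. The Oas1 copies are near-identical, and the labels do not say how reads shared between them were counted.

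PYHIN proteins of the Ifi200 cluster include sensors of DNA, and 10 of 12 tested members rose. Some were already abundant in WT: Mndal had 412, 282 and 331 CPM in WT and 1573, 1149 and 1390 CPM with IFNa, and Ifi203 had 291, 247 and 285 CPM against 1378, 997 and 1359 CPM. Others were nearly absent before treatment, such as Ifi213, at 0.0981, 1.87 and 3.55 CPM against 396, 435 and 293 CPM, and Ifi206, at 0 to 1.02 CPM against 88.3 to 107 CPM. The members that rose thus started from WT means between 0.166 CPM (Ifi208) and 342 CPM (Mndal). Ifi208 was uneven with IFNa, at 50.6, 29.4 and 6.84 CPM, and limma-voom did not call it (adjusted p = 0.197).

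Some Schlafen proteins limit translation of viral transcripts, and 6 of 7 tested members of the family rose. Slfn2 had 133, 132 and 159 CPM in WT and 798, 697 and 631 CPM with IFNa, and Slfn5 had 136, 96.6 and 142 CPM against 587, 543 and 477 CPM. Slfn1 had a single WT count and 24.9, 21.6 and 20.5 CPM with IFNa.

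The interferon-inducible GTPases attack the membranes around intracellular pathogens. Of 10 tested immunity-related GTPases 7 rose, and of 10 guanylate-binding proteins and related giant GTPases 6 rose. Ifi47 had 33.2, 35.4 and 36.3 CPM in WT and 247, 263 and 245 CPM with IFNa. Iigp1 stood at 0.392, 0.134 and 0.711 CPM against 77, 107 and 52.7 CPM, and Iigp1c at 2 WT counts against 55, 61.9 and 53.3 CPM, a ratio of 784 with a counting interval of 217 to 6479. The GBPs stayed at low levels: Gbp9 went from 9.51, 10.7 and 5.08 CPM to 30.8, 33.4 and 34.6 CPM and Gbp2 from 2.16, 0.401 and 5.38 CPM to 21.7, 24.2 and 20.2 CPM, a call lost in a fit of the 6 libraries alone (adjusted p = 0.0543). Gvin3, a giant GTPase, was the most abundant of those that rose in the second list, at 143, 106 and 156 CPM against 403, 303 and 257 CPM.

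All 5 tested genes of ISG15 conjugation rose. ISG15 is a ubiquitin-like protein joined to newly made proteins. Isg15 itself had 0.294, 12.8 and 7.52 CPM in WT and 389, 373 and 366 CPM with IFNa (log2 fold change 5.81, SE 0.679, adjusted p = 0.000193). WT replicate 1 was far below the other WT libraries, whereas the IFNa libraries lay within a narrow range. Its activating enzyme Uba7 had 38.1, 40.7 and 61.1 CPM in WT and 157, 114 and 109 CPM with IFNa. The conjugating enzyme Ube2l6 went from 18.1, 11.2 and 11.5 CPM to 79.2, 98.5 and 53.5 CPM, and the ligase Herc6 from 18.4, 15.6 and 19.1 CPM to 137, 108 and 91.8 CPM.

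Of 40 further antiviral effectors, 31 rose. Ifi44 had 0.883, 1.87 and 0.609 CPM in WT and 500, 486 and 434 CPM with IFNa, and with a log2 fold change of 8.77 (SE 0.372, adjusted p = 3.12e-08) it had the smallest adjusted p of the comparison, shared with Rsad2 and Ly6a. Rsad2, the enzyme viperin that makes a chain-terminating nucleotide, had 4.12, 6.82 and 7.72 CPM against 321, 294 and 310 CPM. Rtp4 went from 3.33, 7.22 and 10.2 CPM to 323, 391 and 242 CPM. Ifi27l2a, at 45, 49.2 and 63.8 CPM in WT, reached 618, 744 and 526 CPM. With IFNa these 4 genes stood at means of 308 to 629 CPM, from WT means of 1.12 to 52.7 CPM.

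The IFITM proteins, which block fusion of viral membranes, did not move as a family. Ifitm3 rose from 1270, 1126 and 1394 CPM to 3691, 3538 and 3449 CPM (log2 fold change 1.49, SE 0.111, adjusted p = 3.07e-06). Ifitm1 fell from 90.3, 113 and 109 CPM to 45.4, 46.5 and 57.4 CPM (log2 fold change -1.07, SE 0.17, adjusted p = 0.00272), and both calls held in every alternative analysis run. Ifitm2, at 323, 304 and 327 CPM in WT and 260, 237 and 191 CPM with IFNa, did not pass (adjusted p = 0.245). Ifitm1 was the one member of the antiviral families that fell. As printed above, neither the Ifitm3 nor the Ifitm1 window holds the ISRE core.

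Ly6 genes encode small surface proteins anchored by lipid, and 4 of 7 tested rose. Ly6a, which encodes Sca-1, had 35.7, 30.9 and 48.4 CPM in WT and 1369, 1355 and 1262 CPM with IFNa. Ly6e, at 470, 461 and 566 CPM in WT, reached 2237, 2123 and 1948 CPM. Ly6c2, best known as a monocyte marker, had 16.4, 37.5 and 24.2 CPM against 685, 779 and 573 CPM. No library of one group overlapped the other for these 3 genes, as for 9.77% of all genes tested that were higher with IFNa. Ly6a and Ly6e were named by a rule that required this.

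Of 13 tested genes of the PARP list, which includes the PARP9 partner Dtx3l, 5 rose. Parp14, an ADP-ribosyltransferase, went from 38.4, 33.2 and 50.9 CPM to 272, 240 and 245 CPM, and Parp9 and Dtx3l, a ubiquitin ligase, rose too, to means of 160 and 253 CPM from 31.3 and 71.7 CPM. Of 17 TRIM genes, 9 rose. Trim30a had 208, 158 and 189 CPM in WT and 891, 751 and 805 CPM with IFNa, and Pml, the organiser of PML nuclear bodies, had 30.3, 29.2 and 36.9 CPM against 243, 242 and 205 CPM.

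Sensors of nucleic acids rose in part, 6 of 20. The cytosolic RNA sensor RIG-I (Rigi) went from 13.7, 17.4 and 12.8 CPM to 133, 140 and 118 CPM, and its relative Dhx58 from 18.2, 14.6 and 13.3 CPM to 94.1, 100 and 69.8 CPM. Ifih1, which encodes the RNA sensor MDA5, rose from 26, 35 and 11.9 CPM to 65, 103 and 68.5 CPM, and lost its call without IFNa replicate 2 (adjusted p = 0.0936). The DNA sensor Cgas rose from 35.4, 40.3 and 31.6 CPM to 118, 119 and 105 CPM. Zbp1, a sensor of left-handed nucleic acids that triggers necroptosis, had 2.55, 0.134 and 6.3 CPM in WT and 135, 95.6 and 106 CPM with IFNa. The endosomal RNA receptor Tlr7 rose from 23.7, 27.3 and 23.5 CPM to 69.5, 55.7 and 71.6 CPM. None of 8 tested genes for Toll-like receptors outside the RNA and DNA sensors and for their co-receptors passed. Beside 3.1% of all genes called in either direction, that count does not set them apart. Their median log2 fold change was -0.02, the same as that of all genes.

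MHC class I genes, which present peptides to CD8 T cells, rose: 8 of 13 tested, with none lower and a median log2 fold change of 1.80. The light chain B2m had 2693, 2842 and 2761 CPM in WT and 8609, 7942 and 7091 CPM with IFNa (log2 fold change 1.51, SE 0.115, adjusted p = 3.69e-06), the largest gain in CPM of any gene named by the rule. H2-K1 went from 700, 611 and 716 CPM to 2492, 2400 and 2142 CPM and H2-D1 from 1006, 693 and 830 CPM to 2132, 2225 and 1756 CPM. Nlrc5, the transactivator of these genes, rose from 9.42, 7.22 and 6.4 CPM to 49.5, 44.4 and 40.9 CPM. The nonclassical H2-T22 rose from a mean of 28.7 to 182 CPM and H2-T24 from 15.3 to 126 CPM. Members of the H2 family share sequence, so the split of counts among them is uncertain.

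Peptide supply rose in part. Of 15 genes of the immunoproteasome and of peptide transport and loading, 6 rose, or 3 without WT replicate 3. The transporter Tap1 had 144, 141 and 157 CPM in WT and 391, 394 and 312 CPM with IFNa. The immunoproteasome subunits Psmb9 (337, 303 and 289 CPM against 605, 625 and 526 CPM) and Psmb10 (90.1, 79.9 and 85.2 CPM against 160, 183 and 164 CPM) rose. The constitutive proteasome had a median log2 fold change of 0.12 over 20 genes, and 1, Psmc1, rose, a call lost without any of the libraries except IFNa replicate 2 (adjusted p up to 0.12 in those fits).

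MHC class II genes, which present peptides to CD4 T cells and are a hallmark of cDC2s, moved the other way. Of 16 tested, 6 fell and 1 rose, with a median log2 fold change of -0.46, and 3 fell without WT replicate 1 or without IFNa replicate 2. H2-Aa had 13545, 10100 and 11954 CPM in WT and 8589, 6546 and 7583 CPM with IFNa, and its call was lost in those same 2 fits (adjusted p = 0.0532 and 0.0672). H2-Ab1 fell from 9043, 7219 and 9246 CPM to 5808, 5291 and 5076 CPM and H2-Eb1 from 8930, 6637 and 8381 CPM to 5338, 4946 and 4562 CPM. H2-Ob, a subunit of the inhibitor of peptide exchange, fell furthest, from 216, 186 and 235 CPM to 98.1, 96.5 and 86.2 CPM (log2 fold change -1.18, SE 0.199, adjusted p = 0.00416). The invariant chain Cd74 had 6078, 5171 and 6515 CPM in WT and 4639, 4153 and 3471 CPM with IFNa, without overlap, and lay just above the threshold (adjusted p = 0.0595), which it passed in 11 of 18 alternatives. Ciita, the master regulator of the class II genes, had 466 to 712 CPM in WT and 450 to 523 CPM with IFNa and did not pass. Summed, class II transcripts stood at 37561 ± 4955 CPM and 24771 ± 2356 CPM, and class I transcripts at 4406 ± 134 CPM and 12775 ± 1236 CPM (SD, n = 3).

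**Figure D4:**
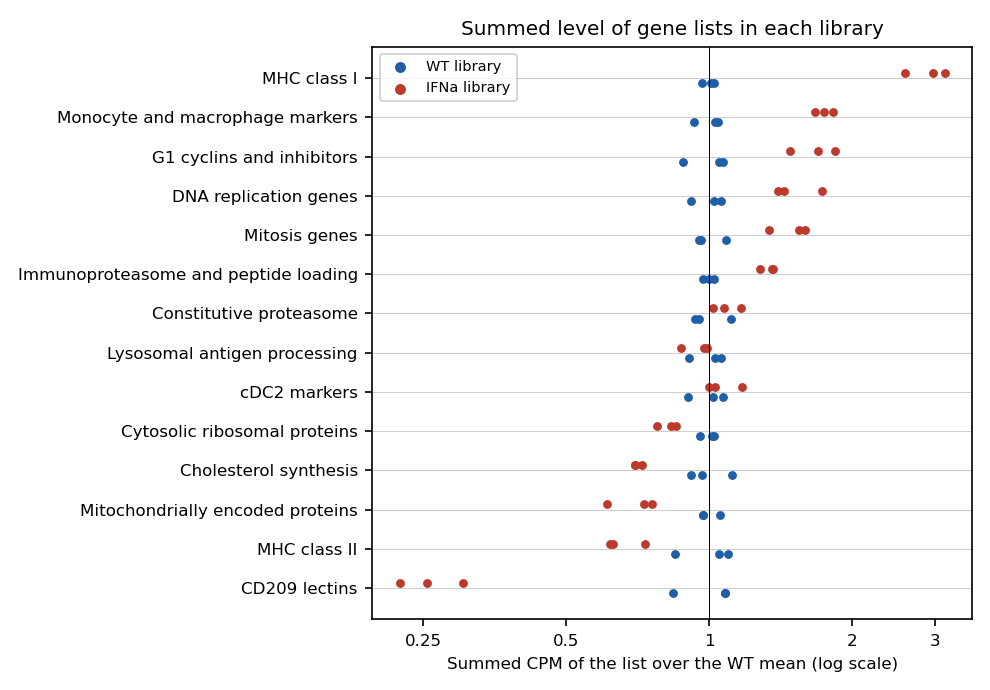
Summed CPM of 14 gene lists in each library, divided by the WT mean of that list, on a log scale; blue points are WT and red points IFNa libraries. MHC class I stands highest with IFNa and the CD209 lectins lowest, while the cDC2 markers and the constitutive proteasome stay near 1.

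Maturation turns a dendritic cell from capturing antigen to migrating and priming T cells. Of 47 maturation genes tested, 15 rose and none fell, with a median log2 fold change of 1.22, and 9 rose in a fit of the 6 libraries alone. Il12b, the p40 subunit of IL-12 and IL-23, had 11.7, 16.1 and 11 CPM in WT and 197, 123 and 209 CPM with IFNa. Ccr7, the receptor that guides cells to lymph nodes, went from 5.59, 13.5 and 8.02 CPM to 109, 123 and 78.5 CPM. The chemokine gene Ccl22 rose from 5.3, 6.42 and 5.48 CPM to 45.4, 39.3 and 31.9 CPM, and Relb, an NF-kB subunit, from 54.2, 34.1 and 24.6 CPM to 103, 100 and 93.5 CPM. Co-stimulatory genes did not follow as a set: of 25 co-stimulatory and checkpoint ligands 2 rose, Lgals9 and Cd274, which encodes PD-L1 (10, 17.3 and 7.21 CPM against 33.7, 51 and 27.8 CPM). In a fit of the 6 libraries alone Cd274 was not called (adjusted p = 0.0639). Cd86 had 19.5 to 38 CPM in WT and 16.9 to 39.3 CPM with IFNa. Cd40 was higher in each IFNa library, at 28.5, 23.6 and 32.8 CPM against 0.49, 5.22 and 12.7 CPM, and Cd80 had 11.4, 16.6 and 5.05 CPM against 5.2, 4.28 and 4.06 CPM, but neither passed (adjusted p = 0.099 and 0.187). Cd40 passed in 5 of 18 alternatives, limma-voom (adjusted p = 0.0349) and the fits without WT replicate 1 or 3 (0.0219 and 0.013) among them.

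Of 16 chemokine genes tested, 4 rose. Ccl5, which attracts T cells, had 51.2, 50.6 and 37.3 CPM in WT and 275, 214 and 226 CPM with IFNa, and Ccl6 had 61.1, 47.1 and 65.5 CPM against 184, 177 and 186 CPM. The interferon-linked Cxcl9 had no count in any of the 6 libraries, and Cxcl10 had 0.785, 0 and 0 CPM in WT and 1.85, 13.4 and 4.16 CPM with IFNa, just above the threshold (adjusted p = 0.0545), which it passed in 5 of 18 alternatives. Il15, which sustains NK and CD8 T cells, had 9.32, 8.69 and 5.38 CPM against 21, 18.3 and 25.7 CPM and did not pass (adjusted p = 0.0774). Of 23 NF-kB subunits and inhibitors, 3 rose: Relb, Traf1 and the inhibitor Nfkbia, which went from 376, 392 and 332 CPM to 657, 622 and 663 CPM. Traf1 was not called by limma-voom (adjusted p = 0.0567) or in a fit of the 6 libraries alone (0.0665). Tnfaip3, which encodes the NF-kB inhibitor A20, had 4.27 to 22.8 CPM in WT and 7.95 to 11 CPM with IFNa and did not pass.

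Genes of cell death also moved in part. Of 24 genes on a list for necroptosis and pyroptosis, which also held other death-associated genes such as Daxx, 3 rose. These were Zbp1, described above, Daxx, at 88.2, 55.6 and 67.8 CPM in WT and 266, 244 and 226 CPM with IFNa, and Mlkl, the executioner of necroptosis. Mlkl had no count in WT and 14.6, 1.97 and 4.75 CPM with IFNa, which against 3 counts over the group is at least 65.2-fold higher. Its level was low and uneven, and limma-voom did not call it (adjusted p = 0.0723).

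Among the gene lists, the lowest median log2 fold change, -2.69, was that of the CD209 lectins, relatives of human DC-SIGN that bind sugars on microbes. Of 4 tested, 3 fell. Cd209a, used as a cDC2 marker, had 356, 259 and 379 CPM in WT and 111, 135 and 96.4 CPM with IFNa. Cd209d fell from 154, 138 and 127 CPM to 8.61, 13.4 and 6.84 CPM (log2 fold change -3.85, SE 0.581, adjusted p = 0.00184). Cd209e had 21, 16.1 and 27.1 CPM in WT and no count in any IFNa library, at least 175-fold lower against 3 counts over the group. Cd209c, at 43.9 to 52.8 CPM against 15.9 to 18.3 CPM, did not overlap between groups either but did not pass (adjusted p = 0.381), beside 8.45% of all genes that were lower without overlap. It was called lower by limma-voom (adjusted p = 0.0167), in a fit of the 6 libraries alone (0.00834) and with no filter on low counts (0.00613). The 3 calls held with each library left out.

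Other genes fell severalfold. Fcgr2b, the inhibitory Fc receptor, had 99.1, 66.2 and 85.7 CPM in WT and 16.2, 9.39 and 15.5 CPM with IFNa, while Fcgr1, the high-affinity activating receptor, rose from 2.35, 3.21 and 0.203 CPM to 71.7, 93.5 and 58.8 CPM. Trf, which encodes the iron carrier transferrin, fell from 320, 278 and 318 CPM to 58.9, 46.5 and 69.2 CPM (log2 fold change -2.39, SE 0.197, adjusted p = 6.42e-06). Dapk1, a death-associated kinase, fell from a mean of 48.9 to 9.36 CPM and Anpep, an aminopeptidase, from 39.4 to 12.3 CPM. Cox6b2, Dgka, Sema6d, Aph1b, Cadm1 and Map2k6 completed the 12 largest decreases, and each lost its call when 1 library was left out. The largest adjusted p in those fits was 0.0611 for Cox6b2 (without WT replicate 3), 0.0808 for Dgka, 0.11 for Sema6d, 0.129 for Aph1b and 0.209 for Cadm1 (each without IFNa replicate 1) and 0.22 for Map2k6 (without WT replicate 3). Cadm1 also missed the threshold with the other scaling factors (adjusted p = 0.0512 to 0.0596).

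**Figure D5:**
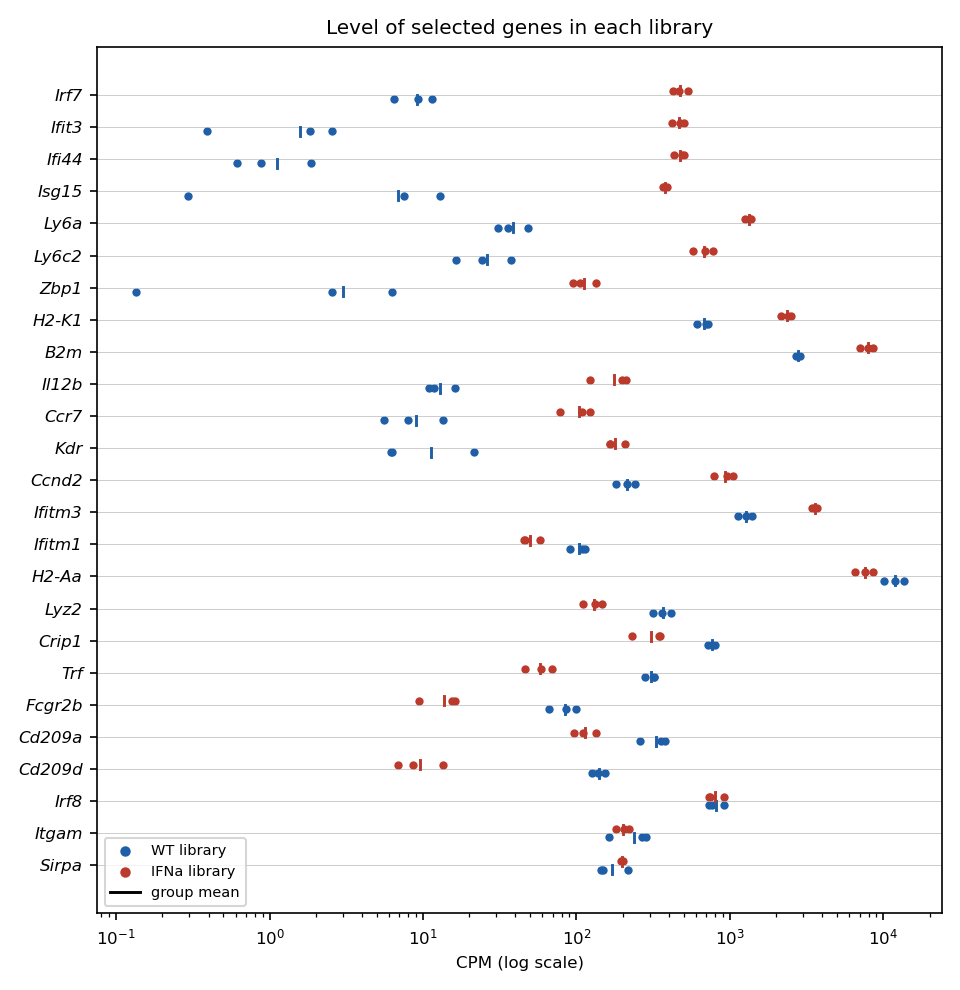
CPM of 25 genes in each WT (blue) and IFNa (red) library on a log axis, with a tick at each group mean. From Irf7 down to Ifitm3 the genes rose, from Ifitm1 to Cd209d they fell, and Irf8, Itgam and Sirpa at the bottom overlap between groups.

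Markers of the sorted cell type were present in both groups. Of 11 cDC2 markers, Cd209a and Flt3 fell and none rose, and their sum was 1608 to 2251 CPM in WT and 1553 to 1787 CPM with IFNa. Flt3, the receptor for the growth factor in the culture, had 308, 253 and 320 CPM in WT and 196, 155 and 147 CPM with IFNa. It did not pass without WT replicate 1, WT replicate 3, IFNa replicate 2 or IFNa replicate 3 (adjusted p = 0.085, 0.141, 0.142 and 0.131). In the broader list of 34 cDC2-associated genes shown in the plots, 3 rose (Clec7a, Ltb and Cd72) and 1 fell (Cd209a), with a median log2 fold change of 0.19. The call of Ltb was lost when WT replicate 2, WT replicate 3 or IFNa replicate 2 was left out (adjusted p = 0.07, 0.119 and 0.116), and that of Cd72 without WT replicate 1, WT replicate 3, IFNa replicate 1 or IFNa replicate 3 (adjusted p = 0.0663, 0.072, 0.118 and 0.108). Sirpa had 145 to 216 CPM and 195 to 200 CPM, Itgam 164 to 285 CPM and 181 to 219 CPM, and Itgax 75.4 to 110 CPM and 71.6 to 140 CPM. Of 6 plasmacytoid markers, which summed to 624 to 738 CPM in WT and 695 to 778 CPM with IFNa, Spib rose, from 71.9, 74.6 and 101 CPM to 195, 120 and 162 CPM, a call lost when any of WT replicates 1 and 2 and IFNa replicates 1 and 3 was left out (adjusted p = 0.101, 0.078, 0.149 and 0.0848). Siglech had 214 to 273 CPM against 127 to 180 CPM and Tcf4 271 to 366 CPM against 380 to 413 CPM, and neither passed. In the broader list of 25 plasmacytoid genes 4 rose (Ly6c2, Bst2, Spib and Runx2) and 1 fell (Cd209d), with a median log2 fold change of 0.53, and 2 rose without IFNa replicate 1. The call of Runx2 was lost without WT replicate 2 or 3 or IFNa replicate 1 or 2 (adjusted p up to 0.171). Of 7 cDC1 markers, Cadm1 and Naaa fell and none rose, and their sum was 814 to 954 CPM in WT and 533 to 567 CPM with IFNa, without overlap. Cadm1 had 135, 147 and 125 CPM in WT and 23.2, 48.8 and 50.8 CPM with IFNa, and Naaa had 241, 186 and 211 CPM against 123, 114 and 137 CPM. Neither call was stable: Cadm1 lost it with any library left out, and Naaa when WT replicate 1, WT replicate 3, IFNa replicate 1 or IFNa replicate 2 was left out (adjusted p = 0.0827, 0.0758, 0.0731 and 0.106). In the broader list of 29 cDC1 genes 3 fell (Septin3, Naaa and Cadm1) and 1 rose (Ifi205), with a median log2 fold change of -0.32, and 0 or 1 fell with any library but WT replicate 2 left out. Xcr1 (8.64 ± 4.5 and 8.23 ± 3.01 CPM) and Clec9a (20 ± 5.35 and 20.8 ± 3.47 CPM) stayed at low levels in both groups and did not pass.

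Some markers of other myeloid cells moved with IFNa. The 9 monocyte and macrophage markers summed to 133 to 175 CPM in WT and 747 to 953 CPM with IFNa. With IFNa most of the sum was Ly6c2 (mean 679 CPM, 26 CPM in WT) and Fcgr1 (74.7 CPM, 1.92 CPM in WT). In WT the largest part was Adgre1 (92.5 CPM, 38.4 CPM with IFNa), so the higher sum does not describe the set as a whole. Of the others in that set Mertk rose (a call lost when WT replicate 3 or IFNa replicate 1 was left out, at adjusted p = 0.0795 and 0.0855, with limma-voom, at 0.346, and in a fit of the 6 libraries alone, at 0.425), Adgre1 fell (no longer called when WT replicate 1, WT replicate 3, IFNa replicate 2 or IFNa replicate 3 was left out, at adjusted p = 0.11, 0.133, 0.165 and 0.141), and the other 5 did not pass. The broader list of 33 monocyte and macrophage genes shown in the plots held 7 that rose and 2 that fell, with a median log2 fold change of 0.54. Outside the set of 9, Plac8 rose from 161, 111 and 128 CPM to 1421, 1478 and 1150 CPM and Apoe from 40.6, 37.3 and 56.5 CPM to 185, 173 and 240 CPM, while the macrophage lysozyme gene Lyz2 fell from 414, 317 and 361 CPM to 132, 146 and 111 CPM. Neutrophil markers summed to 93.7 to 113 CPM in WT and 310 to 363 CPM with IFNa. That sum was led by S100a8 (32.1, 39.7 and 37.7 CPM against 115, 116 and 130 CPM) and S100a9 (47.7, 48 and 47.8 CPM against 157, 139 and 176 CPM), while the other 6 of the 8 markers, granule protein genes among them, did not pass. In the broader list of 17 neutrophil genes 3 rose (5 without WT replicate 3) and none fell, with a median log2 fold change of 1.55. The third was Prtn3, a granule protease, at 0, 1.07 and 0.711 CPM against 10.7, 3.36 and 7.58 CPM, which limma-voom and a fit of the 6 libraries alone did not call (adjusted p = 0.242 and 0.249). Basophil and mast cell markers summed to 23.1 to 57.9 CPM and 91.8 to 151 CPM. Whether a change in the cells that passed the sort had a part in these results, or in the changes of genes that such cells also express, was not tested.

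Some cell cycle genes rose with IFNa. Ccnd2, a D-type cyclin that drives entry into the cycle, had 241, 182 and 214 CPM in WT and 1043, 952 and 782 CPM with IFNa (log2 fold change 2.13, SE 0.167, adjusted p = 4.76e-06), and this call held in every alternative run. Of 34 mitosis genes 9 rose, with a median log2 fold change of 0.61, and of 34 DNA replication genes 3 rose, with a median of 0.52. Birc5, a chromosomal passenger protein, rose from 63.5, 73.6 and 79.2 CPM to 140, 131 and 184 CPM and Lig1, the replicative DNA ligase, from 187, 177 and 157 CPM to 473, 293 and 382 CPM. The mitosis count was 1 without IFNa replicate 1, 4 without WT replicate 3 or IFNa replicate 3, and 5 without WT replicate 1 or WT replicate 2. As groups, 19 of the 34 mitosis genes and 16 of the 34 replication genes did not overlap between WT and IFNa and were higher with IFNa, beside 9.77% of all genes tested.

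Of 33 genes of cholesterol and lipid synthesis, 5 fell and none rose, with a median log2 fold change of -0.63. Scd2, a fatty acid desaturase, had 101, 87.3 and 118 CPM in WT and 27.9, 41 and 48.9 CPM with IFNa, and its call held with each library left out. The count of genes that fell was 1 without WT replicate 1 or IFNa replicate 1, 2 without IFNa replicate 2 or 3, and 3 without WT replicate 3.

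Transcripts for ribosomes and mitochondria took a smaller share of counts with IFNa. Of 84 cytosolic ribosomal protein genes 10 fell and 1 rose, with a median log2 fold change of -0.30, and their sum was 85156 ± 3097 CPM in WT and 69882 ± 3342 CPM with IFNa (SD, n = 3). Rpl10 fell from 482, 530 and 595 CPM to 242, 263 and 332 CPM, and its call held with each library left out. The count of those that fell was 4, 16 and 2 without WT replicates 1, 2 and 3 and 6, 3 and 3 without IFNa replicates 1, 2 and 3. ND1 and CYTB, subunits of the respiratory chain encoded in mitochondrial DNA, fell from 3552, 3420 and 3629 CPM to 2132, 2232 and 2082 CPM and from 3332, 3225 and 3858 CPM to 2081, 2005 and 2364 CPM. Of 26 glycolysis genes none was called, which, beside 3.1% of all genes tested, does not set them apart. Over the same libraries the share of Gm26917 was higher with IFNa in every library, beside 9.77% of all genes tested that were higher without overlap. Gm26917 was called higher, but the call was lost in 8 of 17 alternatives (adjusted p up to 0.212, without IFNa replicate 1). The part of Gm26917 in these decreases was not tested. With Gm26917 and the mitochondrial genes left out together, 16 ribosomal protein genes fell, with a median log2 fold change of -0.28.

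Several called genes belong to no gene list and were picked here after their values were seen. Kdr, a receptor for vascular endothelial growth factor, rose from 21.4, 6.15 and 6.3 CPM to 206, 165 and 166 CPM. Acadl, a mitochondrial enzyme of fatty acid oxidation, rose from 59.8, 65.5 and 37.4 CPM to 265, 225 and 230 CPM, and Mthfd2, an enzyme of mitochondrial folate metabolism, from 120, 78.2 and 89.2 CPM to 271, 251 and 234 CPM. Among genes that fell, Crip1 had 718, 805 and 768 CPM in WT and 343, 351 and 230 CPM with IFNa, and Tgfbi, a matrix protein induced by TGF-beta, had 243, 283 and 247 CPM against 63.5, 125 and 102 CPM. The groups did not overlap for any of these 5 genes, beside 18.2% of all genes tested in either direction. Having been picked with their values known, the 5 are a description.

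Genes that rose lay near each other in the genome. In RefSeq gene order, 88 of 311 matched genes that rose (28.3%) had a neighbour that also rose, as did 3.89% of the other genes. The longest run was of 9 PYHIN genes, from Ifi213 to Ifi205, and the 5 Ifit genes and a run of 5 from Trim12c to Trim30d followed. Genes that fell had such a neighbour in 9 of 93 cases (9.68%, against 1.34% of other genes), among them Cd209a, Cd209e and Cd209d, and H2-Ab1, H2-Aa and H2-Eb1. Neighbouring copies of a family can share reads, so these counts are a description.

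The ISRE core shown above was more common before genes that rose. It was found in 3.44% of all 32851 promoter windows of 250 bases before and 50 after the start, and in 20.6% of the genes that rose (52 of 252 with a window), 7.35% of those that fell (5 of 68) and 3.52% of the rest. The share was 30.6% among genes that rose at least 8-fold, 18.9% from 2-fold to under 8-fold and 8.11% under 2-fold. Among antiviral family members it was 54.1% in those that rose (40 of 74) and 41.2% in those not called (14 of 34). Among genes that rose and belonged to no antiviral family it was 6.74%, and none of the 11 maturation genes that rose and had a window held it. Matches of genes that rose began a median of 52 bases before the start, and 57.1% of them lay within 100 bases before it, as did 30.4% of matches in genes that were not called. A motif of interferon gamma signalling, the GAS element searched as TTCNNNGAA, was found in 11.1% of genes that rose and in 8.3% of all windows.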

How the data were processed

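Gene expression was measured with a 3' tag kit in sorted mouse cDC2s. The authors deposited whole-number counts per gene symbol and library, not normalized. The submitters' processing notes list GRCm39 as the build and, as tools, featureCounts 2.0.6, STAR 2.7.10b, fastp 0.23.1 and Bowtie2. They name no annotation, strand setting or treatment of shared reads, so counts of near-identical, overlapping or antisense genes are uncertain.

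Groups came from the sample titles. Library totals ran from 6900598 to 10552756 counts. Genes were kept with filterByExpr (minimum count 10, minimum total 15), leaving 13251 with 99.83% of counts. CPM is scaled by TMM factors. IFNa was tested against WT with edgeR 4.0.16 (R 4.3.3, quasi-likelihood test) in 1 fit of all 9 libraries (6 residual degrees of freedom), with p-values adjusted by Benjamini-Hochberg over all tested genes. Standard errors were derived from the F statistic. No 2 libraries of a group matched within sampling noise, and each was 1 replicate. On data simulated for this comparison with 12673 genes, 13% of 2-fold and 54.7% of 4-fold changes were recovered, and 0 of the 64 calls were false. Each simulated gene had the average spread of genes at its level, whereas real genes differ from that average. Alternatives included DESeq2 1.42.0 and limma 3.58.1. Bounds against 3 counts and 95% exact intervals cover counting error only.

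Genes named were the 12 largest increases and 12 largest decreases by fold and the 8 by CPM among called genes without overlap (at least 10 CPM for the former, predicted genes left out), up to 6 members of each list by smallest p, and a fixed set of signalling, presentation and subset genes; a few of these are not reported here. The members and lists were chosen with earlier results of these data known, and the symbols of the mitochondrially encoded list were adapted to the files. The reference used for gene order and promoters is of another build (GRCm38.p6), matched by symbol: 10172 tested genes had a promoter window.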

Additional observations from a re-analysis of the deposited data

Results flagged for a closer look

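The A20iKO libraries, which the comparison of IFNa with WT used for the spread and the filter on low counts alone, held transcripts of the antiviral families at a summed 17186 ± 1740 CPM (SD, n = 3). This is above the 8319 ± 801 CPM of the WT libraries and below the 29882 ± 2109 CPM of the IFNa libraries. Their titles name no IFNa, while 1 field of the labels names it for all 9 libraries.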

How the results depend on the processing

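Over 18 alternatives, no gene called in the comparison was called in the opposite direction. The count of genes that rose was 490 with DESeq2 and 493 with a stromal covariate, and was 225 to 313 with 1 library left out, against 318 as reported. The count of genes that fell was 184 with library size alone, 164 with no filter on low counts, 210 with DESeq2, 229 with a stromal covariate and 43 to 107 with 1 library left out. Library size alone took the share of higher calls from 77.4% to 60.9% (286 higher) and the median over all genes from -0.02 to -0.15 (log2). In a fit of the 6 libraries alone, without A20iKO, 237 genes rose and 74 fell of 12173 tested. With the replicate number as a block, 253 genes rose and 45 fell. Deviations from the group mean correlated between same-numbered libraries at r = 0.237, 0.0812 and -0.0778, and between libraries of different number at -0.309 to 0.264. Deviations from a mean of 3 libraries are not independent of each other, so these values cannot decide whether the numbers pair the samples. Named genes that changed sign, none of them called, are given by log2 fold change. Jak1 was -0.02 with library size alone and -0.13 to 0.29 with 1 library left out. Tyk2 was -0.05 with library size alone, -0.08 with WT replicate 2 and IFNa replicate 3 left out together, and -0.14 to 0.16 with 1 library left out (-0.14 without WT replicate 2 and -0.05 without IFNa replicate 2). Irf8 was 0.01 without Gm26917 and mitochondrial genes and -0.15 to 0.09 with 1 library left out, with 0.09, 0.05 and 0.04 without WT replicate 1, IFNa replicate 2 and IFNa replicate 3. Cd86 was -0.06 with library size alone and -0.38 to 0.42 with 1 library left out, below 0 without WT replicate 2, WT replicate 3 or IFNa replicate 2 (-0.13, -0.14 and -0.38). Tnfaip3 was 0.04 with limma-voom and ran from -0.64 without WT replicate 3 to 0.79 without WT replicate 1, and Itgax from -0.07 without IFNa replicate 2 to 0.40 without IFNa replicate 3. Xcr1 was 0.17 with a stromal covariate and -0.40 to 0.44 with 1 library left out (0.44 without WT replicate 1 and 0.12 without IFNa replicate 3). Clec9a was -0.06 with library size alone and -0.05 to 0.30 with 1 library left out, at or below 0 without WT replicate 2, WT replicate 3, IFNa replicate 1 or IFNa replicate 2 (-0.05, -0.05, -0.04 and -0.00). The cause was not tested. In the simulation, which gave each gene the average spread of genes at its level, 13% of 2-fold and 54.7% of 4-fold changes were recovered. Changes of 4-fold, and more so of 2-fold or less, may thus have been missed. Changes under 2-fold were called too, since 276 of the 318 genes that rose and 46 of the 93 that fell were at least 2-fold.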
